A study of Mus musculus with 12 samples.

Results

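The Wnt family examined here comprises the Wnt ligands, their Frizzled receptors and LRP coreceptors, the R-spondins, the Dickkopf proteins and the secreted Wnt-binding proteins. Its members were taken by gene symbol, as every probe set whose symbol is Wnt, Fzd, Dkk, Sfrp or Rspo followed by a number, together with Frzb, Wif1, Lrp5 and Lrp6. The rule uses no measured value and found 45 of the 17306 probe sets tested. They are 19 Wnt ligands, 10 Frizzled receptors, 2 LRP coreceptors, 4 R-spondins, 4 Dickkopf genes and 6 genes of secreted Wnt-binding proteins. Fzd10os, an opposite-strand transcript whose symbol begins with the same letters, was left out and was not above background.

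The RNA came from C166 cells, a mouse line labelled endothelial, and was hybridised to 12 arrays, 4 in each of 3 groups. All 3 groups carried a lentiviral vector with the GFP marker, given at 20% confluency and a multiplicity of infection of 10, and over 99% of the cells were GFP-positive per the labels. The GFP group carried nothing further, whereas the VEGF-down and VEGF-up vectors each also encoded an shRNA matching a stretch of the Vegfa promoter. Medium was renewed at 72 h and cells were harvested on day 7. Each condition is thus 1 vector in 1 cell line, and the labels do not say whether the 4 arrays of a group came from separate cultures, so the p-values cover the spread among these 12 arrays, which may be technical.

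Wnt proteins are secreted, lipid-modified signals that bind a Frizzled receptor and, for the beta-catenin branch, an LRP5 or LRP6 coreceptor. R-spondins raise the amount of receptor at the cell surface, Dickkopf-1 and its relatives bind the LRP coreceptors, and the Sfrp proteins, Frzb and Wif1 bind Wnt ligands outside the cell. Beta-catenin signalling acts through TCF and LEF factors in the nucleus, while other Wnt signals act on cell polarity and calcium. In blood vessels the pathway is known for its part in vessel growth and in the barrier of brain endothelium.

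The promoter sequences of 5 members that changed are shown as examples chosen after their values were seen, because the shRNAs of the study were directed at a promoter and these are the corresponding stretches of the genes described here. Each is the 250 bases before the annotated start, read 5′ to 3′ along the gene, from RefSeq on GRCm38.p6. Capitals mark a TATA box motif spelled TATAAA or the letters TCAAAG, which on the opposite strand spell the TCF/LEF core CTTTGA. The windows are Dkk2 at chr3:132085042-132085291 on the plus strand, Sfrp2 at chr3:83766071-83766320 on the plus strand, Wnt2 at chr6:18030446-18030695 on the minus strand, Fzd1 at chr5:4758217-4758466 on the minus strand and Frzb at chr2:80447397-80447646 on the minus strand.
Dkk2: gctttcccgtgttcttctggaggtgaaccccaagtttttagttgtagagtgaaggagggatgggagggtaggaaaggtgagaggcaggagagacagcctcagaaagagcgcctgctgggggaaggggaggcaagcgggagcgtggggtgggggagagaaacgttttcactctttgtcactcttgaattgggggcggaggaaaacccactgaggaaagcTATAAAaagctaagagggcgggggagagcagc
Sfrp2: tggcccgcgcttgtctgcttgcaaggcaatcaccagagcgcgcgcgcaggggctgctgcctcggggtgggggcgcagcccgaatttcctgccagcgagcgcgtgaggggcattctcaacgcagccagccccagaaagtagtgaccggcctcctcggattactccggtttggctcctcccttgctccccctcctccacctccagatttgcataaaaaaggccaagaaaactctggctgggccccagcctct
Wnt2: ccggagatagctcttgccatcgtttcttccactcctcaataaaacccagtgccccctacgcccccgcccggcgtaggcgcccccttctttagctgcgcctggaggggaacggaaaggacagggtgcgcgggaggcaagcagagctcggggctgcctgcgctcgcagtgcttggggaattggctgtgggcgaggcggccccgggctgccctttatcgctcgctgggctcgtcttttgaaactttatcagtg
Fzd1: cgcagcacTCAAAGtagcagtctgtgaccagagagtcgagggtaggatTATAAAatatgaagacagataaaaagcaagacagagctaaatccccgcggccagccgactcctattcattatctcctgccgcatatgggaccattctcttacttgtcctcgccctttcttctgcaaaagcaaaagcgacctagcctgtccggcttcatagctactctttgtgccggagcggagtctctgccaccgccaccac
Frzb: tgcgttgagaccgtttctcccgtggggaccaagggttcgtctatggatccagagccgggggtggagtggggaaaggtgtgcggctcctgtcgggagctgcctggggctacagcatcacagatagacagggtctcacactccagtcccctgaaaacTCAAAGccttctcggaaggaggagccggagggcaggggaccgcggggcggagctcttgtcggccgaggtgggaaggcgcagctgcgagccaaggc

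The Dkk2 window held a TATA box 32 bases before the start, and the Fzd1 window held 1 at 202 bases before it. The TCF/LEF core lay 242 bases before the start in Fzd1 and 95 bases before it in Frzb, on the opposite strand in both. Neither motif was found in the Sfrp2 and Wnt2 windows. GC content was 55.6% for Dkk2, 63.6% for Sfrp2 and for Wnt2, 51.2% for Fzd1 and 64.4% for Frzb. Both strands were searched. A window was matched for 29 of the 45 members, and TATAAA was present in 5 of them (Dkk1, Dkk2, Fzd1, Wif1 and Wnt11) and in 12.4% of all 32851 mouse windows of this length. The core CTTTGA was likewise present in 5 members (Dkk1, Frzb, Fzd1, Wnt11 and Wnt5b) and in 13.8% of all windows. Members were counted as genes, the 29 having 32 windows, whereas the percentages count windows. These matches describe letters and not binding sites, and absence of a match says only that the letters are not in the window.

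Levels are log2 of the deposited intensity. A member was called above background in a group when its mean exceeded 3.09, the 95th percentile of 68 chemosensory receptor probe sets. By this measure 27 of the 45 members were above background in at least 1 group and 18 were in none, among them 11 of the 19 Wnt ligands. The 18 had group means from 2.09 to 3.05, differed between groups by at most 0.06, and none passed the test in any comparison, with a smallest adjusted p of 0.0704 by limma. The same level was used for all probe sets. Some members above it were as flat in VEGF-down as Wnt16 (SD 0.004), which was below it. Their SDs were 0.002 for Wnt7b, 0.003 for Fzd7, 0.004 for Fzd10 and 0.005 for Sfrp5. Being above background therefore does not by itself show that a member was expressed. "Rose", "fell" and "changed" are used for an adjusted p under 0.05 by limma, after Benjamini-Hochberg adjustment across the 17306 probe sets.

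Vegfa, the gene whose promoter the shRNAs match, differed between groups in the labelled directions. Its log2 levels were 7.15, 7.37, 7.13 and 7.15 on the GFP arrays, 6.46, 6.61, 6.54 and 6.55 on the VEGF-down arrays and 7.35, 7.66, 7.68 and 7.48 on the VEGF-up arrays. Every VEGF-down array lay below every GFP array, while 1 GFP array lay above the lowest VEGF-up array. Vegfa fell by 0.66 ± 0.08 (SE) on the log2 scale in VEGF-down (adjusted p = 5.76e-05 by limma, exact two-sided permutation p = 0.0286, the smallest that 4 arrays against 4 allow). It rose by 0.34 ± 0.08 in VEGF-up (adjusted p = 0.0134 by limma, exact permutation p = 0.0571). That rise no longer passed the test when arrays were scaled on their poly-A spike-in probe sets (0.17, adjusted p = 0.1).

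In VEGF-down cells the family changed most in Dkk2, which rose 13.7-fold, and in Sfrp2, which fell 6.29-fold. Of the 45 members, 15 changed against GFP (33.3%), beside 31.0% of all probe sets tested. Of these, 7 rose and 8 fell, beside 14.6% and 16.4% of all probe sets. A change of at least 2-fold was found for 4 members (8.89%), namely Dkk2, Wnt2, Sfrp2 and Wnt5b, beside 1.85% of all probe sets. The median log2 difference of the members was -0.01, the same as over all probe sets. The share of members changed was near the background.

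The direction of these counts depended on scaling. With arrays centred on their medians 7 members rose and 25 fell, 16 of the 32 being members never above background, beside 2545 rises and 8163 falls (61.9%) over all probe sets. With spike-in scaling, which moved the median of all probe sets to -0.32 in VEGF-down and -0.18 in VEGF-up against GFP and to 0.14 in VEGF-up against VEGF-down, 5 members rose and 37 fell, beside 674 rises and 14374 falls (87.0%) over all probe sets. The shift was thus one of all probe sets, and each scaling moves the log2 difference of every gene in a comparison by 1 shared amount. Of the 15 calls, 12 passed in all 17 alternative settings, and Dkk1, Dkk3 and Rspo3 did not.

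In VEGF-up cells fewer members changed and Sfrp2 was the only 1 to change at least 2-fold. Against GFP, 7 members changed (15.6%), beside 13.2% of all probe sets, and 5 rose and 2 fell, beside 6.73% and 6.51%. The single 2-fold change amounts to 2.22% of the members, beside 0.220% of all probe sets. The members' median was again -0.01, as over all probe sets. With spike-in scaling 3 members rose and 6 fell, beside 179 rises and 3183 falls over all probe sets. The 2 comparisons with GFP share the GFP arrays and are therefore given side by side for each member below.

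Between the 2 shRNAs, 17 members changed (37.8%), beside 30.6% of all probe sets, with 10 higher and 7 lower in VEGF-up, beside 15.1% and 15.5%. By the measured means, a difference of at least 2-fold was found for 6 members (13.3%), beside 2.32% of all probe sets. They were Dkk1, Dkk2, Frzb, Sfrp2, Wnt2 and Wnt5b. Dkk1 was below background on every VEGF-down array, and set against the background level it was only at least 1.66-fold higher in VEGF-up. The median was 0.00 both for the members and over all probe sets. Median centring gave 29 higher and 7 lower in VEGF-up, 16 of these 36 never above background, beside 9018 and 2503 of all probe sets. Spike-in scaling gave 12 and 4, beside 3416 and 1252. With each array of these groups left out in turn the count ran from 14 to 17.

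**Figure D1:**
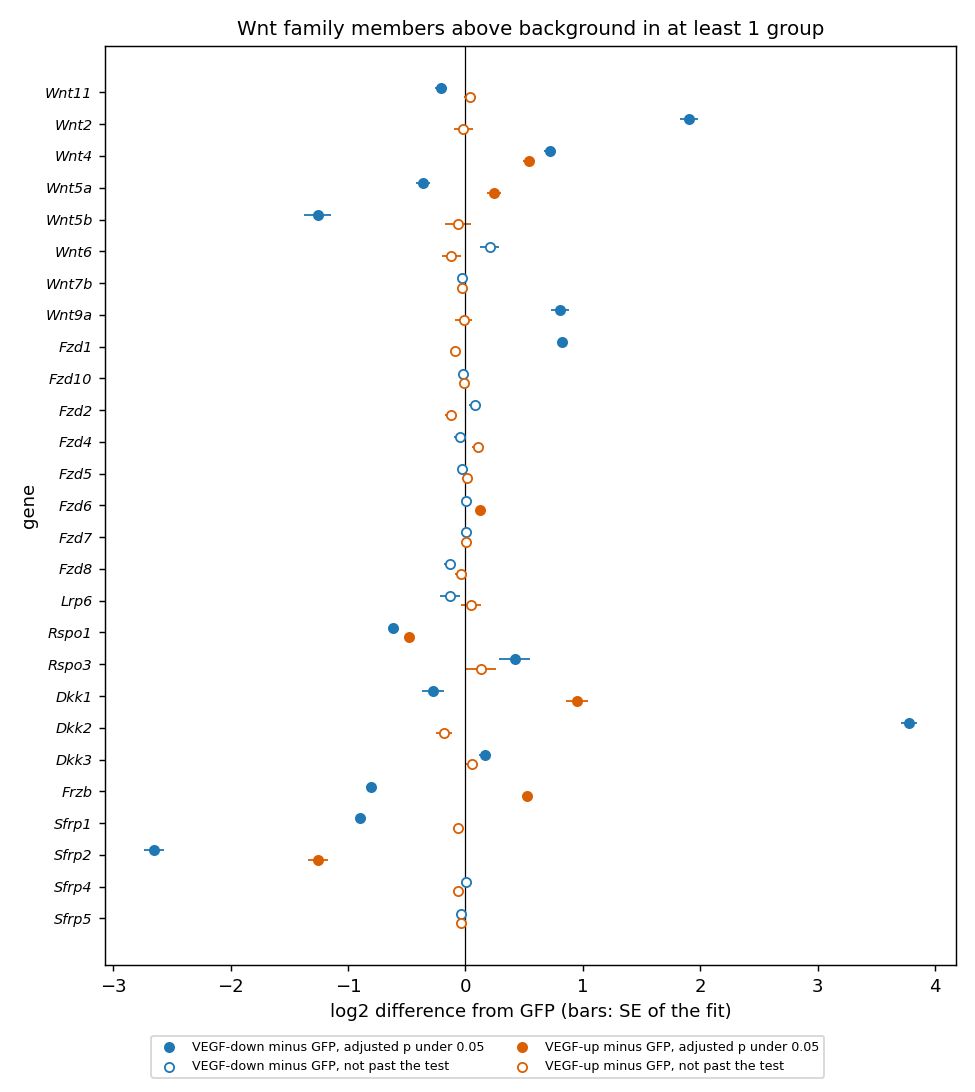
Log2 difference from GFP for the members above background, with the standard error of the fit as bars. Blue marks VEGF-down and orange VEGF-up, and filled points passed the test. Dkk2 stands far to the right in VEGF-down at 3.78 and Sfrp2 lies left of 0 for both shRNAs, at -2.65 and -1.25.

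Among the ligands, Wnt2, Wnt4 and Wnt9a rose and Wnt5a, Wnt5b and Wnt11 fell in VEGF-down, whereas in VEGF-up Wnt4 and Wnt5a rose and no ligand fell. Wnt2, a ligand of the beta-catenin branch known in lung and placental vessel development, had log2 levels of 2.49, 2.53, 2.52 and 2.52 in GFP, 4.56, 4.54, 4.13 and 4.46 in VEGF-down and 2.45, 2.51, 2.52 and 2.52 in VEGF-up. Only the VEGF-down arrays were above background, and all 4 were. Wnt2 was therefore at least 2.52-fold higher in VEGF-down than in GFP (measured means 4.42 ± 0.20 and 2.52 ± 0.02, SD, n = 4, adjusted p = 1.27e-08 by limma). The bound sets the bright group against the background level, here and for the other members given with "at least".

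Wnt9a, a ligand known for joint formation, was 2.90, 2.91, 2.90 and 2.90 in GFP, 3.59, 3.56, 3.68 and 4.0 in VEGF-down and 2.90, 2.87, 2.90 and 2.88 in VEGF-up. It likewise exceeded background on the VEGF-down arrays alone. It was at least 1.53-fold higher there than in GFP (adjusted p = 1.01e-05 by limma). The VEGF-up and GFP levels of Wnt2 and Wnt9a were all below background and no fold is given between them.

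Wnt4, a ligand required for kidney and female reproductive tract development, rose with both shRNAs. Its levels were 7.33, 7.36, 7.12 and 7.35 in GFP, 8.03, 7.97, 8.07 and 7.97 in VEGF-down and 7.80, 7.91, 7.81 and 7.80 in VEGF-up. The 3 groups did not overlap, with GFP lowest and VEGF-down highest. The log2 difference from GFP was 0.72 ± 0.05 in VEGF-down (1.64-fold, adjusted p = 1.19e-06) and 0.54 ± 0.05 in VEGF-up (1.45-fold, adjusted p = 5.24e-05, both by limma). The difference between the shRNAs was -0.18 (VEGF-up minus VEGF-down, adjusted p = 0.0221 by limma), which lost the threshold with spike-in scaling and in 5 of 8 leave-one-out fits (without VEGF-down replicate 1 or 3 or VEGF-up replicate 1, 3 or 4), where it ran from -0.17 to -0.16.

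Wnt5a and Wnt5b, ligands best known for signalling without beta-catenin, both fell in VEGF-down. Wnt5a was 9.16, 8.88, 9.06 and 9.06 in GFP, 8.65, 8.68, 8.68 and 8.71 in VEGF-down and 9.43, 9.23, 9.23 and 9.24 in VEGF-up. The groups did not overlap, with VEGF-down lowest and VEGF-up highest. Wnt5a fell by 0.36 ± 0.06 in VEGF-down (adjusted p = 0.000653) and rose by 0.24 ± 0.06 in VEGF-up (adjusted p = 0.0196, both by limma). With spike-in scaling the VEGF-up difference was 0.07 (adjusted p = 0.467 by limma), and in a fit of these 2 groups alone its adjusted p was 0.0726.

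Wnt5b was 4.91, 4.70, 4.89 and 4.68 in GFP, 3.20, 3.73, 3.48 and 3.73 in VEGF-down and 4.67, 4.71, 4.87 and 4.67 in VEGF-up. The VEGF-down arrays lay apart from all others and the GFP and VEGF-up arrays overlapped. Wnt5b was 2.39-fold lower in VEGF-down (log2 difference -1.26 ± 0.11, adjusted p = 6.47e-06 by limma), and its VEGF-up difference from GFP was -0.06 (adjusted p = 0.705 by limma). The difference between the shRNAs was 1.20 (adjusted p = 8.27e-06 by limma).

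Wnt11, a ligand of the polarity branch with a role in heart and kidney formation, was 7.57, 7.57, 7.70 and 7.57 in GFP, 7.28, 7.43, 7.52 and 7.35 in VEGF-down and 7.56, 7.63, 7.70 and 7.66 in VEGF-up. All VEGF-down arrays lay below all others. Wnt11 fell by 0.20 ± 0.05 in VEGF-down (adjusted p = 0.0108 by limma) and differed by 0.04 in VEGF-up (adjusted p = 0.63 by limma). Wnt6, which acts in epithelial development, was 4.86, 4.88, 4.86 and 4.86 in GFP, 5.01, 4.87, 5.32 and 5.08 in VEGF-down and 4.62, 4.73, 4.77 and 4.86 in VEGF-up. GFP overlapped with both other groups, and Wnt6 passed the test only between the shRNAs, at -0.33 (adjusted p = 0.01 by limma), and not with spike-in scaling (-0.19, adjusted p = 0.162). Wnt7b was above background without a change, with levels from 3.20 to 3.30.

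**Figure D2:**
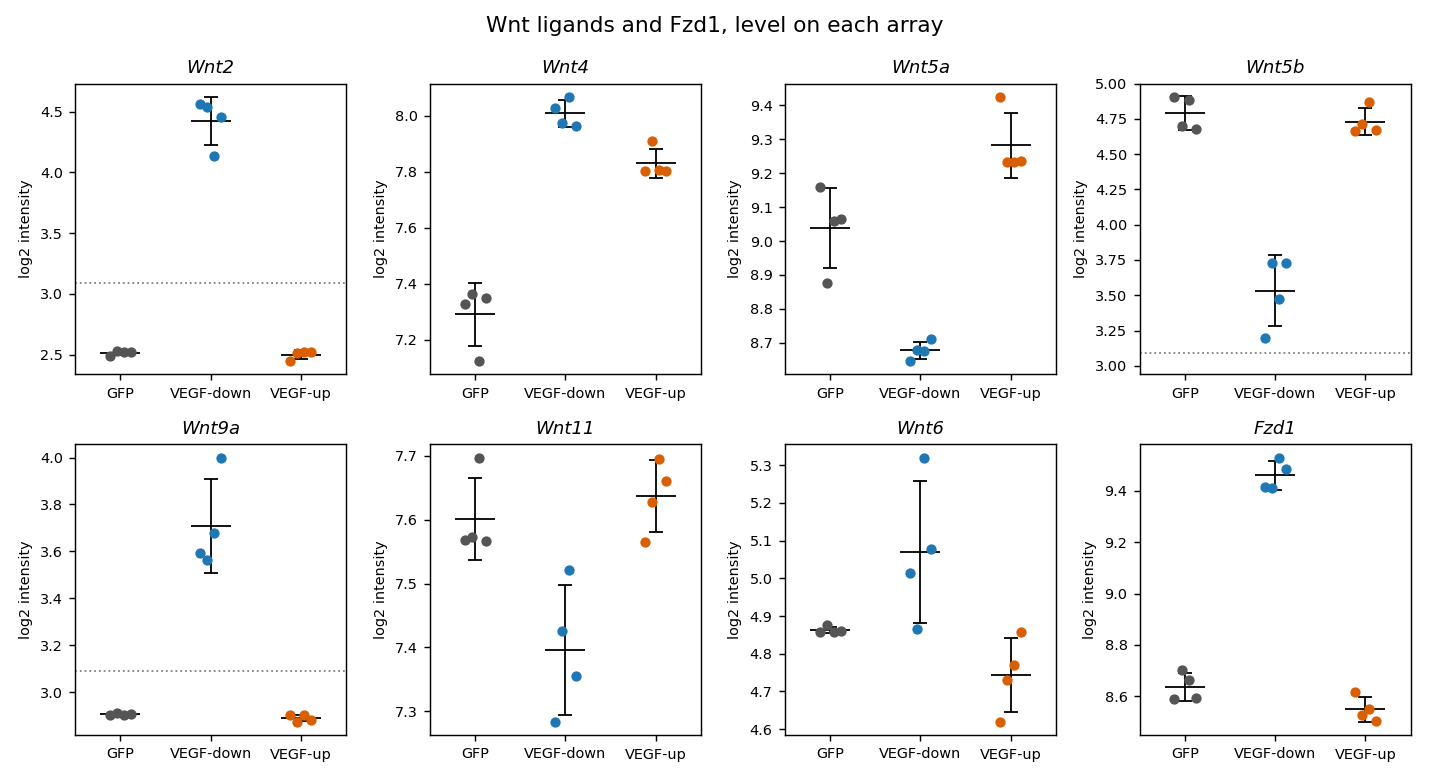
Log2 intensity of 7 Wnt ligands and Fzd1 on each of the 12 arrays, with group mean and SD, on an axis of its own for each gene. The dotted line is the background level of 3.09 and is drawn where it lies near the values. Wnt2 and Wnt9a exceed it in VEGF-down alone.

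Among the receptors, Fzd1 was the Frizzled gene that rose in VEGF-down, and no Frizzled or LRP gene fell against GFP with either shRNA. Fzd1, a receptor of the beta-catenin branch, had log2 levels of 8.59, 8.70, 8.66 and 8.59 in GFP, 9.42, 9.41, 9.53 and 9.49 in VEGF-down and 8.62, 8.53, 8.55 and 8.50 in VEGF-up. The VEGF-down arrays were all above the others, and GFP and VEGF-up overlapped. Fzd1 rose by 0.82 ± 0.04 in VEGF-down (1.77-fold, adjusted p = 2.83e-08) and differed by -0.09 in VEGF-up (adjusted p = 0.155, both by limma). Its difference between the shRNAs was -0.91 (adjusted p = 9.62e-09 by limma).

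Fzd6, a polarity receptor, was 6.33, 6.30, 6.32 and 6.28 in GFP, 6.30, 6.31, 6.32 and 6.32 in VEGF-down and 6.46, 6.44, 6.45 and 6.38 in VEGF-up. The VEGF-up arrays lay above all others, and the rise there was 0.12 ± 0.02 (adjusted p = 0.0033 by limma), though with spike-in scaling it was -0.05 and did not pass. Fzd2, a receptor for Wnt5a among others, was 9.07, 8.91, 8.95 and 9.09 in GFP, 9.18, 9.03, 9.06 and 9.08 in VEGF-down and 8.92, 8.91, 8.77 and 8.93 in VEGF-up. Its groups overlapped with GFP, and it passed only between the shRNAs, at -0.21 (adjusted p = 0.00959 by limma), a call lost with spike-in scaling. Fzd4, the receptor for norrin in retinal vessels, was 4.28, 4.29, 4.28 and 4.27 in GFP, 4.15, 4.25, 4.27 and 4.26 in VEGF-down and 4.53, 4.35, 4.39 and 4.27 in VEGF-up. Its VEGF-down arrays lay below the GFP arrays, which overlapped with VEGF-up. Fzd4 too passed only between the shRNAs, at 0.15 (adjusted p = 0.032 by limma), and not without VEGF-down replicate 1 or 2 or VEGF-up replicate 1 or 3, when it ran from 0.11 to 0.16.

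The remaining receptors above background passed in no comparison. Levels over the 12 arrays ran from 6.36 to 6.51 for Fzd5, from 6.75 to 6.79 for Fzd7, from 7.27 to 7.65 for Fzd8, from 3.17 to 3.24 for Fzd10 and from 7.63 to 8.13 for the coreceptor Lrp6. All VEGF-down arrays of Fzd8 lay below the GFP arrays, with a difference of -0.13 (adjusted p = 0.0581 by limma). Lrp5, the other coreceptor, was not above background in any group.

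Of the R-spondins, Rspo1 fell with both shRNAs. Its levels were 10.03, 9.94, 10.02 and 9.88 in GFP, 9.27, 9.36, 9.32 and 9.45 in VEGF-down and 9.53, 9.44, 9.50 and 9.46 in VEGF-up. Every GFP array lay above every array of the other groups, which overlapped with each other. Rspo1 fell by 0.61 ± 0.04 in VEGF-down (adjusted p = 8.17e-07) and by 0.48 ± 0.04 in VEGF-up (adjusted p = 2.87e-05, both by limma). The difference between the shRNAs was 0.13 (adjusted p = 0.035 by limma), lost in 6 of 8 leave-one-out fits (without VEGF-down replicate 1, 2 or 3 or VEGF-up replicate 1, 3 or 4), where it ran from 0.11 to 0.14. Rspo3, which in the mouse is needed for vessels of the placenta, was 7.04, 7.52, 7.18 and 6.75 in GFP, 7.68, 7.58, 7.38 and 7.54 in VEGF-down and 7.21, 7.21, 7.35 and 7.24 in VEGF-up. GFP overlapped with both groups. Its rise of 0.42 ± 0.13 in VEGF-down (adjusted p = 0.0346 by limma) ranged from 0.29 to 0.55 when 1 array was left out and lost the threshold in 6 of those 8 fits, keeping it only without GFP replicate 2 or VEGF-down replicate 3. It also did not pass with spike-in scaling (0.11, adjusted p = 0.258 by limma) or in a fit of these 2 groups alone (adjusted p = 0.0859). Rspo2 and Rspo4 were not above background.

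The Dickkopf genes held the largest difference of the family. Dkk2, which binds LRP5 and LRP6 and can act for or against beta-catenin signalling depending on the cell, had log2 levels of 4.74, 4.56, 4.56 and 4.50 in GFP, 8.37, 8.55, 8.35 and 8.21 in VEGF-down and 4.41, 4.40, 4.42 and 4.40 in VEGF-up. All 4 VEGF-down arrays lay far above the rest, and the VEGF-up arrays all lay just below the GFP arrays. Dkk2 rose by 3.78 ± 0.07 in VEGF-down (13.7-fold, adjusted p = 4.6e-11 by limma). Its VEGF-up difference from GFP was -0.19 ± 0.07 (adjusted p = 0.112 by limma), which does not pass. Between the shRNAs it was 15.6-fold higher in VEGF-down (adjusted p = 2.32e-11 by limma). The VEGF-up arrays of Dkk2 were about as flat (SD 0.008) as those of Wif1 (0.009), which was not above background. Its folds may therefore be lower bounds, which was not tested.

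Dkk1, the best-known LRP-binding inhibitor of Wnt signalling, was 2.98, 3.01, 2.69 and 2.81 in GFP, 2.59, 2.60, 2.60 and 2.59 in VEGF-down and 3.56, 4.01, 3.92 and 3.79 in VEGF-up. Only the VEGF-up arrays exceeded background. Dkk1 was at least 1.66-fold higher in VEGF-up than in GFP (measured means 3.82 ± 0.20 and 2.87 ± 0.15, SD, n = 4, adjusted p = 6.11e-05 by limma). The VEGF-down call (adjusted p = 0.0454 by limma) is between groups that were both below background on every array, so no fold is given, and it was kept in only 1 of 8 leave-one-out fits, the one without GFP replicate 3. Dkk3, a divergent Dickkopf whose receptor binding is unsettled, was 3.40, 3.60, 3.51 and 3.59 in GFP, 3.65, 3.81, 3.59 and 3.72 in VEGF-down and 3.58, 3.58, 3.59 and 3.59 in VEGF-up. All 3 groups overlapped. Its rise of 0.17 ± 0.05 in VEGF-down (adjusted p = 0.0282 by limma) was -0.14 with spike-in scaling and was lost without GFP replicate 1 or 3 or VEGF-down replicate 2 or 4, when it ran from 0.12 to 0.16. Dkk4 was not above background.

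Of the 6 genes of secreted Wnt-binding proteins, Sfrp1, Sfrp2 and Frzb fell in VEGF-down and none rose, while in VEGF-up Sfrp2 fell and Frzb rose. Sfrp2, a Frizzled-like secreted protein abundant in fibroblasts and matrix, was 6.55, 6.23, 6.23 and 6.37 in GFP, 3.61, 3.62, 3.63 and 3.90 in VEGF-down and 5.13, 5.18, 4.96 and 5.10 in VEGF-up. The groups did not overlap, with GFP highest, VEGF-up between and VEGF-down lowest. Sfrp2 was 6.29-fold lower in VEGF-down (log2 difference -2.65 ± 0.09, adjusted p = 2.95e-09) and 2.39-fold lower in VEGF-up (-1.25 ± 0.09, adjusted p = 6.07e-06, both by limma). The 2 shRNAs differed by 1.40 (adjusted p = 2.97e-07 by limma). Apart from replicate 4, the VEGF-down levels of Sfrp2 ran only from 3.61 to 3.63. Its folds against VEGF-down may therefore be lower bounds, which was not tested.

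Sfrp1, a related Wnt-binding protein, was 6.19, 6.15, 6.15 and 6.12 in GFP, 5.21, 5.21, 5.30 and 5.31 in VEGF-down and 6.12, 6.08, 6.08 and 6.06 in VEGF-up. The VEGF-down arrays lay below all others, and GFP and VEGF-up overlapped. It fell by 0.89 ± 0.03 in VEGF-down (1.86-fold, adjusted p = 3.46e-09) and differed by -0.07 in VEGF-up (adjusted p = 0.175, both by limma). Between the shRNAs the difference was 0.83 (adjusted p = 4.45e-09 by limma).

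Frzb, a secreted Wnt antagonist first known from cartilage, was 5.31, 5.20, 5.20 and 5.20 in GFP, 4.43, 4.52, 4.37 and 4.37 in VEGF-down and 5.70, 5.76, 5.84 and 5.70 in VEGF-up. The 3 groups did not overlap, and Frzb had the same order of group means as Vegfa. Of the members that passed with both shRNAs, Wnt5a and Dkk1 had this order too, Dkk1 with its GFP and VEGF-down levels below background. The means of Wnt11, Fzd4, Fzd5 and Lrp6 also ran in this order, without passing against GFP in VEGF-up. The share of all probe sets with this order was not computed. Frzb fell by 0.80 ± 0.04 in VEGF-down (1.75-fold, adjusted p = 1.43e-07) and rose by 0.52 ± 0.04 in VEGF-up (1.44-fold, adjusted p = 2.12e-05, both by limma). Sfrp4 and Sfrp5 were above background without a change, with levels from 3.60 to 3.78 and from 3.68 to 3.80. Wif1 was not above background.

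**Figure D3:**
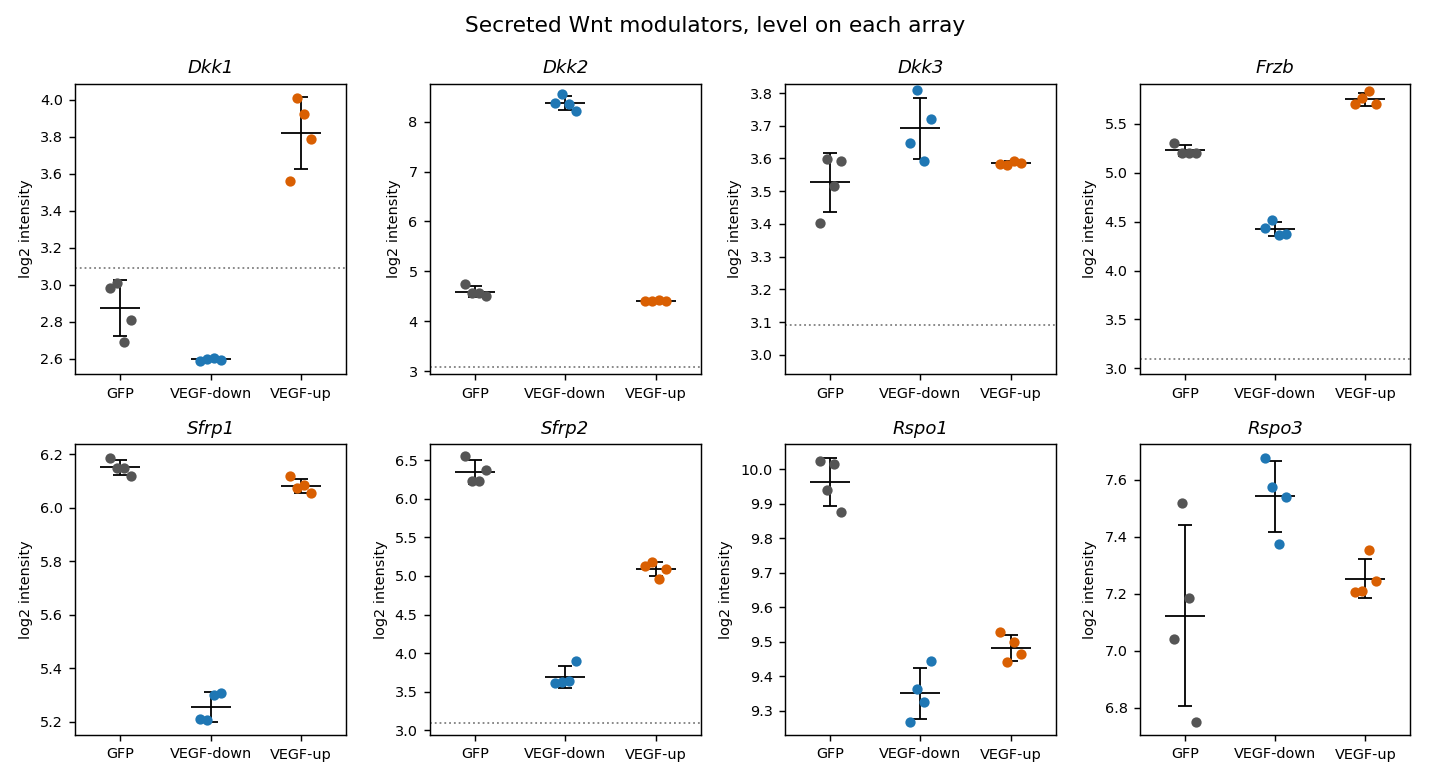
Log2 intensity of Dickkopf, R-spondin and secreted Wnt-binding genes on each of the 12 arrays, with group mean and SD, on an axis of its own for each gene. The dotted line is the background level of 3.09 and is drawn where it lies near the values. Dkk2 is high on all 4 VEGF-down arrays and Sfrp2 is highest in GFP and lowest in VEGF-down.

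Against GFP, 6 members passed the test with both shRNAs. The share of all probe sets doing so was not computed, so nothing is read from this count about the family. Rspo1, Sfrp2 and Wnt4 did so in the same direction, and Frzb, Wnt5a and Dkk1 in opposite directions, Dkk1 with its VEGF-down levels below background. The authors' deposited table for the VEGF-down shRNA lists 10 of the 45 members, with a fold of 12.9 for Dkk2, 3.46 for Wnt2, 1.92 for Wnt9a, 1.75 for Fzd1 and 1.61 for Wnt4. The falls in the authors' deposited table for this shRNA are -6.40 for Sfrp2, -2.36 for Wnt5b, -1.78 for Sfrp1, -1.73 for Frzb and -1.53 for Rspo1, a minus sign marking a fall. The authors' deposited table for the VEGF-up shRNA has 794 rows and lists 5 members. Its folds are 1.998 for Dkk1, 1.47 for Frzb, 1.46 for Wnt4, -1.39 for Rspo1 and -2.41 for Sfrp2.

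Genes that act beside the family were taken from lists of pathway genes. Among 27 genes of ligand secretion and membrane partners, 7 rose and 3 fell in VEGF-down (37.0%, beside 31.0% of all probe sets) and 3 rose and 1 fell in VEGF-up (14.8%, beside 13.2%). Porcn, which attaches the lipid to Wnt proteins, rose by 0.65 ± 0.05 in VEGF-down (adjusted p = 3.79e-06 by limma), and Wls, which carries Wnt proteins to the cell surface, rose by 0.33 (adjusted p = 1.04e-07 by limma), a call lost with spike-in scaling. Gpc3, a cell-surface glypican that binds Wnt proteins, ran from 9.55 to 9.95 in GFP, from 7.15 to 7.27 in VEGF-down and from 9.31 to 9.39 in VEGF-up. It was 6.14-fold lower in VEGF-down (adjusted p = 9.76e-10) and lower by a log2 difference of -0.47 in VEGF-up (adjusted p = 0.00148, both by limma). Gpc4, another glypican, rose by 0.53 in VEGF-down (adjusted p = 2.42e-06) and by 0.29 in VEGF-up (adjusted p = 0.000953, both by limma). The VEGF-up call of Gpc4 was lost with spike-in scaling. Igfbp4, from the same list, rose by 0.67 in VEGF-down (adjusted p = 7.3e-08 by limma). Ptk7, a membrane protein of the polarity branch, was 3.65-fold lower in VEGF-down (adjusted p = 4.07e-07 by limma).

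Among 38 intracellular transducers, 4 rose and 8 fell in VEGF-down (31.6%, beside 31.0% of all probe sets). In VEGF-up 7 rose and 2 fell (23.7%, beside 13.2%). Without GFP replicate 3, without VEGF-up replicate 2 or with a replicate block, the VEGF-up count was 4 and 1. Tle1, a corepressor that binds TCF and LEF factors, rose 2.24-fold in VEGF-down (log2 difference 1.16 ± 0.05, adjusted p = 3.27e-08 by limma). Ctnnb1, which encodes beta-catenin, fell by 0.10 in VEGF-down (adjusted p = 0.0101) and by 0.13 in VEGF-up (adjusted p = 0.00546, both by limma). Tcf7l1, a mostly repressive TCF factor, fell by 0.34 in VEGF-down (adjusted p = 5.9e-06 by limma), and Tcf7l2 and Lef1 passed in no comparison.

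Among 27 genes of the planar polarity and calcium branch, 6 rose and 3 fell in VEGF-down (33.3%, beside 31.0% of all probe sets). In VEGF-up 3 rose and 2 fell (18.5%, beside 13.2%). Prickle2, a polarity protein, fell by 0.55 in VEGF-down (adjusted p = 5.71e-05 by limma). Among 33 common target genes of beta-catenin signalling, 6 rose and 7 fell in VEGF-down (39.4%, beside 31.0%). In VEGF-up 4 rose and 2 fell (18.2%, beside 13.2%). Ccn5, a matricellular protein, rose 5.46-fold in VEGF-down (2.45 ± 0.07, adjusted p = 6.17e-10 by limma), while its relative Ccn4 fell 1.86-fold there (adjusted p = 8.14e-09) and rose by 0.31 in VEGF-up (adjusted p = 0.00015, both by limma), a rise that did not pass with spike-in scaling (0.13, adjusted p = 0.163). Cldn1, a tight-junction protein, fell by 0.41 in VEGF-down (adjusted p = 0.000926) and rose by 0.62 in VEGF-up (adjusted p = 0.000179, both by limma). Between the shRNAs the 4 lists had 3 genes higher and 6 lower in VEGF-up for membrane partners, 11 and 3 for transducers, 5 and 6 for polarity and 7 and 6 for targets. Over all probe sets 15.1% were higher and 15.5% lower in VEGF-up. Axin2, the most widely used readout of the beta-catenin branch, was not above background in any group, with means of 2.28, 2.47 and 2.28 in GFP, VEGF-down and VEGF-up. The lists' splits followed the scaling as those of all probe sets did, and nothing is read from them about the lists. In VEGF-down the rises and falls with median centring or spike-in scaling were 7 and 10 or 3 and 21 for membrane partners, 4 and 18 or 1 and 34 for transducers, 6 and 13 or 0 and 21 for polarity, and 7 and 20 or 3 and 26 for targets. In VEGF-up they were, in the same order of lists, 4 and 1 or 0 and 2, 10 and 1 or 0 and 6, 3 and 2 or 0 and 6, and 5 and 2 or 1 and 4. Between the shRNAs the genes higher and lower in VEGF-up were 11 and 5 or 5 and 3, 21 and 3 or 12 and 2, 14 and 6 or 5 and 1, and 22 and 6 or 8 and 5.

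**Figure D4:**
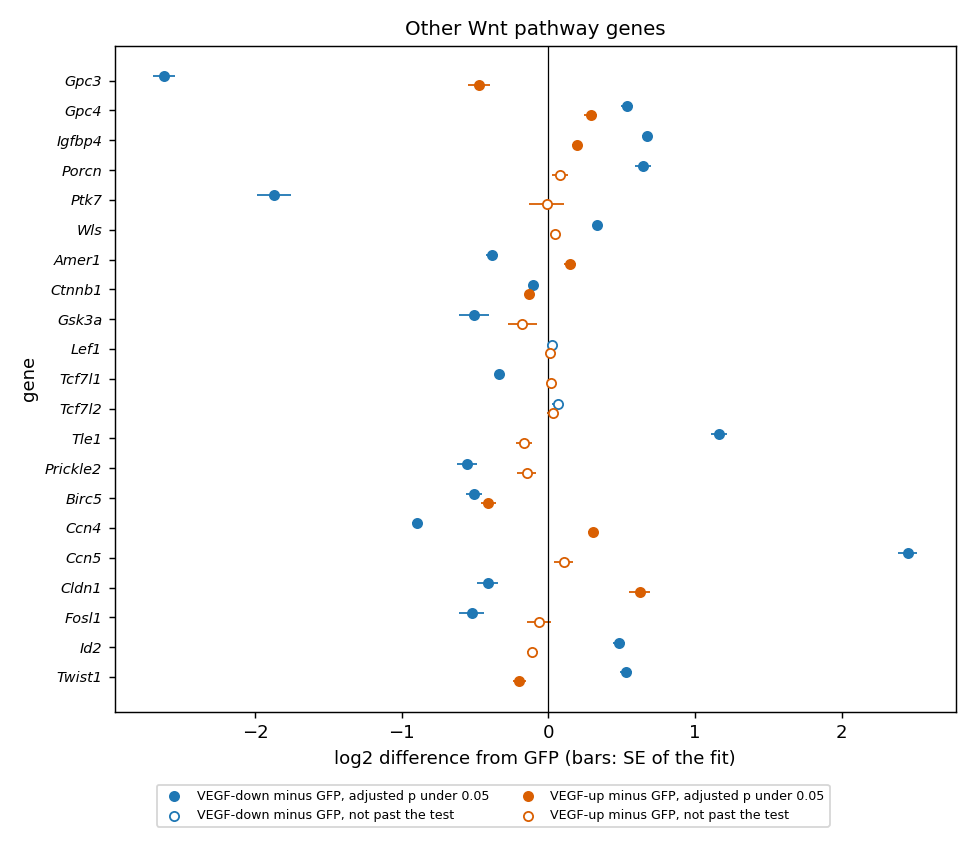
Log2 difference from GFP for named genes of the 4 pathway lists, with the standard error of the fit as bars. Blue marks VEGF-down and orange VEGF-up, and filled points passed the test. Gpc3 and Ptk7 lie far to the left and Ccn5 far to the right in VEGF-down.

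Most endothelial markers were not above background in these cells, although the label names them endothelial. Of 20 endothelial markers 7 were above background in every group, and Pecam1, Cdh5, Tek, Tie1, Erg and Vwf were among the 13 that were not. The summed intensity of the 20 endothelial markers was 845.9 to 906.4 in GFP, 1200.1 to 1263.5 in VEGF-down and 764.9 to 887.8 in VEGF-up. In VEGF-down 2 of the 20 rose and 0 fell, beside 14.6% and 16.4% of all probe sets, and in VEGF-up 2 rose and 1 fell, beside 6.73% and 6.51%. The 2 that rose in VEGF-down were Kdr, the main receptor for VEGF-A, with mean log2 levels of 4.96 in GFP and 8.30 in VEGF-down, and Cd34, with 8.44 and 8.75. Kdr was at least as flat in GFP (SD 0.002) as Vwf (0.005), which was not above background. Of 14 fibroblast and smooth muscle markers 13 were above background, Myh11 being the exception, and 11 fell and 0 rose in VEGF-down and 5 fell and 2 rose in VEGF-up, with sums of 43050.1 to 44858.6 in GFP, 36969.4 to 37840.3 in VEGF-down and 39934.7 to 41113.8 in VEGF-up. Of 10 mesothelial markers 8 were above background in GFP, 9 in VEGF-down and 8 in VEGF-up. In VEGF-down 7 of the 10 rose and 1 fell, and in VEGF-up 2 rose and 3 fell. The sums of the 10 were 8297.4 to 9188.6 in GFP, 13149 to 13532.8 in VEGF-down and 7683.9 to 8062.8 in VEGF-up. Of 8 blood cell markers 3 were above background, Ptprc not among them. The sums of the 8 were 849.3 to 1048.4, 803.8 to 857.7 and 481.5 to 540.7 in the same order of groups. In VEGF-up 2 of the 8 fell, Csf1r and Cd14, the latter with mean log2 levels of 9.58 in GFP and 8.54 in VEGF-up. In VEGF-down the endothelial, fibroblast and mesothelial sums lay apart from GFP and the blood sum overlapped with it, whereas in VEGF-up the fibroblast, mesothelial and blood sums lay below GFP and the endothelial sum overlapped. The part of these markers in the changes of Dkk2, Sfrp2 and the other members was not tested. In such bulk RNA, fewer cells of a type and less RNA per cell cannot be told apart.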

How the data were processed

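The authors deposited 1 linear intensity per probe set and array. The submitters' processing notes name GCRMA without a version. The values run from 3.04 to 17470.06. The authors' deposited tables of changed genes list fold changes with a sign and test statistics, both treated here as scores. How the authors computed each p-value and q-value is not given in the sources used here. Those tables do not name their control, and their fold changes were matched to the GFP arrays from the matrix.

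Log2 of the intensity was taken with no offset. The 17370 probe sets hold 64 controls, and the other 17306 were tested. Of these, 16464 carry 1 symbol, matched by Entrez number to RefSeq on GRCm38.p6, and 842 carry none. The 3 group means were estimated together from the 12 arrays in limma 3.58.1 under R 4.3.3 (lmFit, eBayes with a variance trend), two-sided, with Benjamini-Hochberg adjustment and a threshold of 0.05. SD is over 4 arrays and SE is that of the fit. With 4 arrays per group, their number limits the precision. The procedure was tested on simulated data.

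The members and lists were chosen with earlier results of these data known. Members that passed in any comparison and were above background are given array by array. From the pathway lists, genes that passed with a log2 difference of at least 0.5 could be named, together with Ctnnb1, Axin2, Porcn, Wls, Lef1, Tcf7, Tcf7l1 and Tcf7l2. Alternatives were median centring, quantile normalization, spike-in scaling, a background filter, an offset of 16, no trend, robust eBayes, a replicate block, a fit of 2 groups and leaving out each array. Same-numbered arrays had residual correlations from -0.09 to 0.16, with 1 of 12 pairs over 0.1. Such values cannot settle whether same-numbered arrays were handled together, and the main fit did not pair them. The shRNA sequences were not used here.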

Additional observations from a re-analysis of the deposited data

Results flagged for a closer look

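Of 123 groups of 4 arrays examined, over the members and other genes given array by array, 14 had 1 array far from the other 3 by Dixon's criterion, and chance gives about 1 in 20. Among the members, Sfrp2 stood high on VEGF-down replicate 4 (3.90, next 3.63), Frzb on GFP replicate 1 (5.31, next 5.20) and Fzd4 low on VEGF-down replicate 1 (4.15, next 4.25). Fzd2 was low on VEGF-up replicate 3 (8.77, next 8.91). Among the ligands, Wnt4 was low on GFP replicate 3 (7.12, next 7.33) and high on VEGF-up replicate 2 (7.91, next 7.81). Wnt5a was high on VEGF-up replicate 1 (9.43, next 9.24), and Wnt11 on GFP replicate 3 (7.70, next 7.57). Wnt2 was low on GFP replicate 1 (2.49, next 2.52) and on VEGF-up replicate 1 (2.45, next 2.51), all below background. Of the other genes, Vegfa (7.37, next 7.15) and Porcn (6.74, next 6.55) were high on GFP replicate 2, Prickle2 was high on VEGF-up replicate 1 (7.81, next 7.77), and Tcf7l2 was low on GFP replicate 4 (6.60, next 6.73).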

How the results depend on the processing

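With 1 array left out, the members changed numbered 12 to 15 in VEGF-down, 7 to 7 in VEGF-up and 14 to 17 between the shRNAs, and the Vegfa differences ran from -0.69 to -0.60, from 0.30 to 0.41 and from 0.96 to 1.07. Median centring gave 32 members in VEGF-down and 36 between the shRNAs, and spike-in scaling gave 42 in VEGF-down. The Vegfa rise in VEGF-up was 0.17 with spike-in scaling. The replicate block, which treats same-numbered arrays as paired, gave 13, 7 and 15 members and the same Vegfa differences of -0.66, 0.34 and 1.004.

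Over the 19 members that passed in at least 1 comparison, 896 of 969 values kept direction and call, 49 lost the call, 7 gained it and 17 changed sign. Over the other pathway genes followed in this way these were 1018 of 1071, 19, 11 and 23. Members that never passed are not among these values. Of the members never above background, 16 gained a call in VEGF-down with median centring and 18 with spike-in scaling. The sign changes were of differences that did not pass as reported, except those of Dkk3 in VEGF-down and Fzd6 and Amer1 in VEGF-up. With median centring they were Fzd6 in VEGF-down (-0.013), Wnt2 (0.0037), Wnt9a (0.0044) and Ptk7 (0.0098) in VEGF-up, and Tcf7l2 (0.0042), Ctnnb1 (0.0094) and Lef1 (0.0225) between the shRNAs. With spike-in scaling they were, in VEGF-up, Amer1 (-0.022), Rspo3 (-0.042), Fzd6 (-0.048), Fzd4 (-0.065), Ccn5 (-0.068), Porcn (-0.0905), Dkk3 (-0.11), Wls (-0.13), Wnt11 (-0.14), Tcf7l2 (-0.14), Tcf7l1 (-0.15) and Lef1 (-0.16). In VEGF-down they were Wnt6 (-0.10), Dkk3 (-0.14), Fzd2 (-0.23), Tcf7l2 (-0.25), Lef1 (-0.29) and Fzd6 (-0.30), and between the shRNAs Dkk3 (0.031), Tcf7l2 (0.10), Ctnnb1 (0.11) and Lef1 (0.12). Quantile normalization turned Fzd6 in VEGF-down (-0.007), Wnt9a in VEGF-up (0.017) and Lef1 between the shRNAs (0.0234). Leaving out 1 array gave ranges that cross 0 for Ptk7 (-0.042 to 0.047), Lef1 (-0.021 to 0.027), Tcf7l2 (-0.0056 to 0.044) and Wnt2 (-0.025 to 0.0005) in VEGF-up, and for Fzd6 (-0.0035 to 0.011) and Lef1 (-0.0046 to 0.043) in VEGF-down. The cause was not tested. Low signal limits Dkk1, Wnt2 and Wnt9a, whose folds are bounds. The folds of Dkk2 and Sfrp2 may be lower bounds too, which was not tested.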
